A study of Homo sapiens with 23 samples.

Results

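SUDHL-4 is an established diffuse large B-cell lymphoma (DLBCL) line of the germinal center B cell-like (GCB) type. Its polysomal RNA after 24 h with 40 nM INK128 was compared with that of cells given 0.01% DMSO, on 3 arrays per group, which the study describes as independent replicates. These 6 of the 23 arrays of the series were chosen by their labels. INK128, an ATP-competitive inhibitor of the mTOR kinase, was dissolved in DMSO, so both groups carried the solvent. Cytoplasmic lysates were separated on sucrose gradients, the RNA of the heaviest fractions, 9 to 11, was pooled, and 0.5 µg of it was copied from an oligo-dT primer and hybridized to Illumina HumanHT-12 BeadChips. A probe was retained if all 3 arrays of either group gave it a detection p of 0.02 or less, which held for 14841 of the 47231 probes read. Averaging the probes of a gene left 12051 of 37164 entries, namely 8959 named genes and 3092 probes without a single gene symbol, all counted as genes below. Levels are log2 signals after each array was brought to a common mean and spread. Every array received the same amount of RNA, so the values compare transcripts within the heavy polysomal pool and cannot show a change of the pool as a whole. Total RNA was not analysed here, so more mRNA per cell and more ribosomes per mRNA cannot be told apart. Within this 1 line, neither can fewer cells in a given state and less RNA per cell.

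The mTOR kinase works in 2 complexes. mTORC1 responds to amino acids and growth factors, and phosphorylates the 4E-BP proteins and the S6 kinases, which raises cap-dependent translation, most of all of mRNAs with a 5′ terminal oligopyrimidine (TOP) start such as those of ribosomal proteins. It also raises the output of ATF4, SREBP and MYC dependent programs and holds back autophagy and lysosome formation. mTORC2 phosphorylates AKT, which keeps the FOXO transcription factors out of the nucleus. In B cells the same kinases lie downstream of the B-cell receptor and its coreceptors.

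Between 15005 and 16309 probes per array were detected above background. Replicates of a group correlated at 0.990 to 0.996 (Pearson's r over all genes tested, after averaging of probes), except INK128 replicate 3, which correlated at 0.979 and 0.983 with the other INK128 arrays. That array also detected the most probes and had the highest median log2 signal, 8.55 against 7.90 and 7.96 with INK128 and 8.08 to 8.22 with DMSO. Beside a count of 5 or more calls in a list below, the value is given where leaving out 1 array moved it by over 1.5 times. Smaller counts moved by at most 3 calls, except the rises of ribosomal protein genes. The B-cell label was borne out by 8 of 9 lineage markers detected on all 6 arrays, PAX5 being the exception. Of 24 GCB markers 22 were detected on all 6 arrays, but not S1PR2 or MAML3. Among 27 markers of the activated B cell-like (ABC) type and plasma cells 15 were detected throughout, whereas the defining ABC genes IRF4 and PRDM1 were not above background on any DMSO array. No erythroid or myeloid marker, and of the T and NK markers only CD2, near background at levels of 6.12 to 6.70, was detected on all 6 arrays. Of 12 epithelial and stromal markers, DCN and PECAM1 were detected on all 6. The summed signal of that list before normalization was 3506.3 to 4329.2 with DMSO and 4751.3 to 6165.4 with INK128. Such sums are not adjusted for the brightness of an array. The other 10 markers of that list were detected on none of the 6 arrays. The source of the DCN and PECAM1 signal in this cell line was not tested.

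INK128 changed 3246 of the 12051 genes (limma's moderated test, Benjamini-Hochberg adjusted p under 0.05). 1622 rose and 1624 fell, 13.5% of all genes in each direction, and these shares are the background for every list below. The median change over all genes was -0.03 on the log2 scale, with a median standard error (SE) of 0.13. Of the changed genes 3227 had no overlap between the INK128 and the DMSO arrays. A call with 3 arrays per group largely brings such separation about, so it is no support beyond the call, here or below. Most changes were small: 199 rises and 136 falls exceeded 1 on the log2 scale, and 970 changes were under 0.5. Without INK128 replicate 3 the count was 4131, of which 3107 were among the 3246. It was 2095 without DMSO replicate 1 and 1959 without DMSO replicate 3. Of the retained probes 743 passed the filter through the DMSO arrays alone and 895 through the INK128 arrays alone, so their groups had to differ in part. Among the 10786 genes with probes detected on all 6 arrays 3092 were called. Median centring in place of the common spread gave 3139 changed genes, of which 40.6% were higher. Among the 158 genes with a mean level over 14, 4 rose and none fell, with changes between -0.52 and 0.57.

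**Figure D1:**
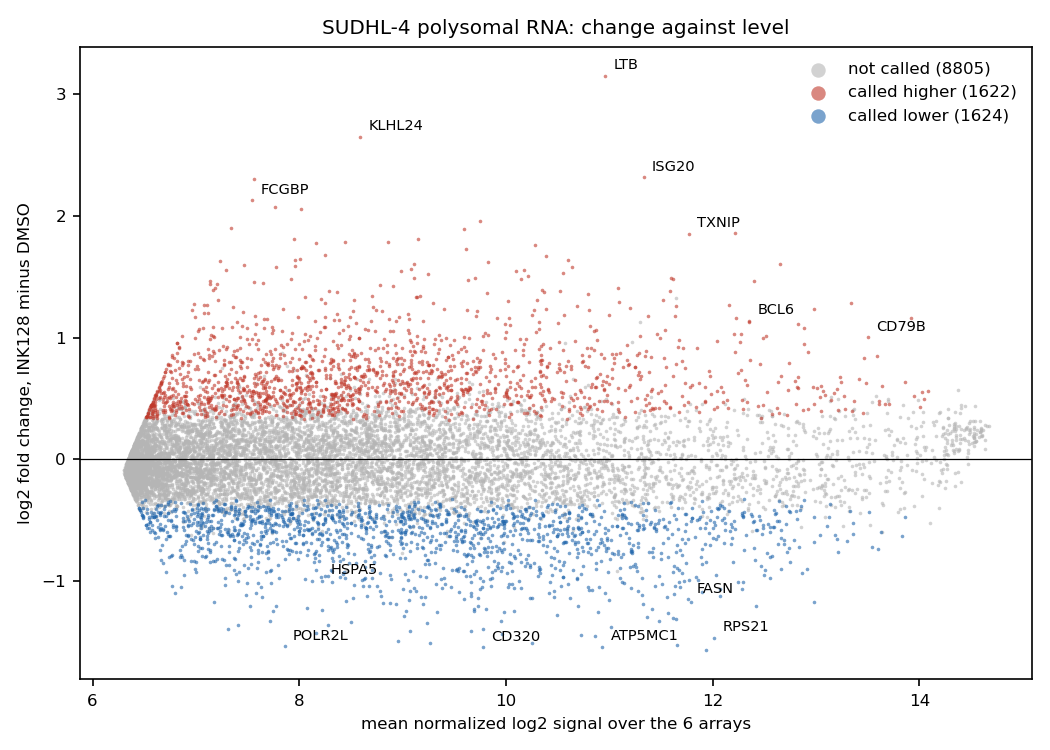
Log2 change with INK128 (y axis) against the mean log2 level (x axis) for each of the 12051 genes, with called rises and falls (adjusted p under 0.05) colored. The 1622 rises and 1624 falls spread over the whole range of levels up to about 14, and rises reach further from 0 than falls, up to 3.15 for LTB.

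**Figure D2:**
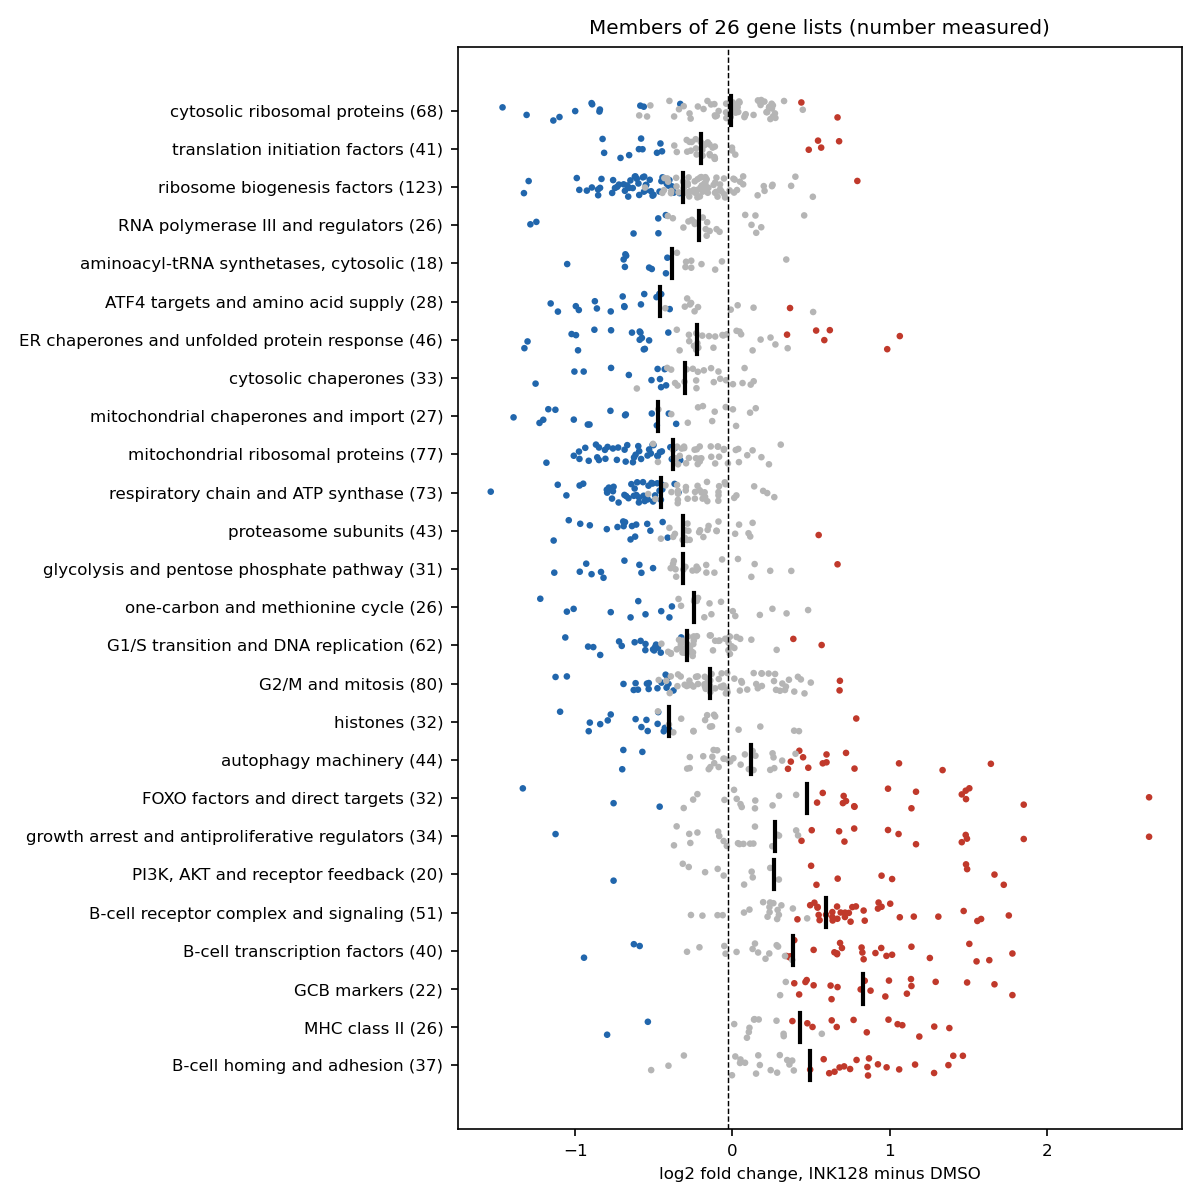
Log2 change with INK128 (x axis) of each measured member of 26 gene lists (rows, with the number measured), with red points for genes called higher, blue for genes called lower and gray for the rest. Black bars mark each list's median, the dashed line marks the median of all genes (-0.03), and the vertical scatter within a row has no meaning. The medians of the mitochondrial lists lie left of the dashed line, at -0.38 to -0.47, and those of the B-cell lists right of it, at 0.39 to 0.83.

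mRNAs of the translation apparatus did not move as a block. Of 68 measured cytosolic ribosomal proteins, whose mRNAs start with a TOP sequence, 12 fell and 2 rose, with a median of -0.01. RPS21 of the small subunit stood at 12.58, 12.97 and 12.69 on the DMSO arrays and at 11.67, 11.41 and 10.77 on the INK128 arrays, a fall of 1.46 on the log2 scale (SE 0.21, adjusted p = 0.000986). RPS7 stood at 12.39, 12.17 and 12.34 with DMSO and at 11.28, 11.06 and 10.63 with INK128, and fell by 1.31 (SE 0.17, adjusted p = 0.000494). For both genes the INK128 arrays lay below every DMSO array, with INK128 replicate 3 lowest. RPL36A fell by 1.14, and RPS26 by 1.10, with -0.78 and -1.42 on its different probes. RPL34 fell by 0.89, with -0.39 (adjusted p = 0.0543) on one probe and -1.39 on the other. RPS24 changed by -0.23 to -1.46 on its different probes and lost its call on the brightest (adjusted p = 0.313). RPL37 and RPL22, named after their values were seen, rose by 0.67 and 0.44. The count of rises rested on 1 array, since without INK128 replicate 3 20 ribosomal protein genes rose and 12 fell, with a median of 0.10. The 18 members with a mean level over 14 had none called in either direction and a median of 0.19, and the other 50 a median of -0.11. Probes of ribosomal protein genes can also pick up their many near-identical pseudogenes.

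Factors that start and carry translation showed a like split. Among 41 initiation factors 10 fell and 4 rose, with a median of -0.20. The falls numbered 6 without DMSO replicate 3. EIF4EBP1, the translational repressor that mTORC1 phosphorylates, fell by 0.59 (SE 0.12, adjusted p = 0.0051), with DMSO arrays at 7.28, 7.36 and 7.34 and INK128 arrays at 6.67, 6.89 and 6.62. Its relative EIF4EBP3 went the other way, from 7.74, 8.06 and 7.93 to 8.85, 8.69 and 8.60, a rise of 0.80 (SE 0.13, adjusted p = 0.0017). In neither gene did the groups overlap. PDCD4, an inhibitor of the helicase EIF4A that S6 kinase marks for degradation, rose by 0.68, and the other rises were those of EIF4A2, EIF1B and EIF3A (0.48, 0.56 and 0.54, named after their values were seen). EIF2S2, the beta subunit of the factor that brings the initiator tRNA, fell by 0.71, EIF2B2 of its exchange factor by 0.82 and EIF5A by 0.66. Of 18 elongation factors and other TOP mRNAs 3 fell and 2 rose, but none rose and 1 fell without DMSO replicate 3, 1 rose and 1 fell without DMSO replicate 1 or INK128 replicate 2, and 5 rose without INK128 replicate 3. EEF2, the translocase, stood at 13.86, 13.80 and 13.76 with DMSO and at 14.51, 14.47 and 14.13 with INK128, but this rise of 0.56 (adjusted p = 0.0108) lost its call under 5 alternatives, among them median centring (0.29, adjusted p = 0.1). Among 14 host RNAs of snoRNAs, several of them TOP transcripts, 3 rose and 3 fell, but 1 rose without DMSO replicate 1, 5 rose without INK128 replicate 3 and 5 fell without INK128 replicate 1. SNHG9 fell by 1.50 (SE 0.19, adjusted p = 0.00048) and SNHG15 by 0.88, whereas EPB41L4A-AS1 rose by 0.98.

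Factors that build the ribosome fell in part. Of 123 measured members 50 fell and only NOP53 rose (0.79, named after its value was seen), with a median of -0.31; 31 fell without DMSO replicate 1 and 75 without INK128 replicate 3. CCDC86, a nucleolar protein, stood at 10.54, 10.89 and 10.42 with DMSO and at 9.08, 9.15 and 9.64 with INK128, and fell by 1.33 (SE 0.18, adjusted p = 0.00066). NOP16, needed for the large subunit, went from between 11.96 and 12.09 to 10.80, 10.95 and 10.41, a fall of 1.30 (SE 0.15, adjusted p = 0.000333). In both, every INK128 array lay below the DMSO arrays by over 0.7. POP1, the core protein of RNase P and MRP, fell by 0.99, LAS1L and BYSL by 0.85 each, and POLR1H, a subunit of RNA polymerase I, by 0.83. The E-box CACGTG, the site of MYC and its relatives, was present in 35% of the 120 promoter windows of these genes (42 windows, searched on both strands in the 250 bases before and 50 after each RefSeq start), in 7.26% of all 35116 windows and in 9.87% of the 10579 windows of tested genes. The window of CCDC86 is shown for the fall of its mRNA, with the E-box in capitals, 25 bases before the start (GRCh38.p14, chr11:60841863-60842162, plus strand).
CCDC86: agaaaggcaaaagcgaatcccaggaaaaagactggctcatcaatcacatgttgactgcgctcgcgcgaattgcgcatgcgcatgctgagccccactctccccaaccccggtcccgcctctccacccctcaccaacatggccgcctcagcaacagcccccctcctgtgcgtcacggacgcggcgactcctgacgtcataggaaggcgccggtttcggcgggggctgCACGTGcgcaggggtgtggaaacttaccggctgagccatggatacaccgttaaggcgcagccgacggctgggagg

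RNA polymerase III, which makes tRNAs and 5S rRNA, had 6 of 26 members lower and none higher (11 lower without INK128 replicate 3). POLR3K, a small subunit, stood at 10.59, 10.70 and 10.82 with DMSO and at 9.37, 9.46 and 9.54 with INK128, and fell by 1.25 (SE 0.12, adjusted p = 0.000145). Its INK128 arrays lay within 0.2 of each other and over 1 below the DMSO arrays. GTF3C6, part of the factor that recruits the polymerase, fell by 0.63. The MYC network as a list was mixed, with 5 of 17 lower and 1 higher, MXD4, which antagonizes MYC and rose by 0.74 (1 lower without DMSO replicate 1 or 3, 2 without INK128 replicate 1 and 3 without DMSO replicate 2). MYC itself, named after its value was seen, changed by 0.36 (adjusted p = 0.0923).

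Some of the enzymes that charge tRNAs, and more of the genes of the amino acid response, fell. Of 18 cytosolic aminoacyl-tRNA synthetases 9 fell, 9 were not called and none rose, with a median of -0.38 (4 fell without DMSO replicate 2). GARS1, the glycyl-tRNA synthetase, stood at 13.09, 13.05 and 12.96 with DMSO and at 12.37, 12.34 and 12.31 with INK128, a fall of 0.69 (SE 0.11, adjusted p = 0.00154). KARS1 and VARS1 fell by 0.68 each. The groups were apart for all 3 genes. The mitochondrial synthetases had 3 of 15 lower and 1 higher, and 1 lower without DMSO replicate 1 or 3 or without INK128 replicate 1 or 2. Among 28 ATF4 targets and amino acid carriers 16 fell (11 without DMSO replicate 3) and 1 rose, PSPH (0.37, named after its value was seen), with a median of -0.46. SLC1A5, a glutamine carrier, went from 9.96, 10.03 and 9.67 to 8.78, 8.76 and 9.19, a fall of 0.98 (SE 0.15, adjusted p = 0.00152), and CEBPB, a transcription factor induced by ATF4, fell by 0.86. MTHFD1L, a mitochondrial folate enzyme, fell by 0.77. ATF4 itself, named after its value was seen, changed by -0.01 (SE 0.12, adjusted p = 0.953). The ATF4 element, TGATG and AA separated by 1 base, was found on either strand in 6 of the 19 windows of the synthetases (31.6%), in 21.7% of the 46 windows of the ATF4 list, and in 3.62% of all windows and 1.97% of those of tested genes. MARS1, the methionyl-tRNA synthetase, fell by 1.05 in the polysomal pool. In the study's RT-qPCR of total mRNA, INK128 altered TCL1A among the genes checked, but not MARS1. The legend of that measurement names no cell line. Any part of the element in the fall was not tested. The window of MARS1 holds the element on the opposite strand, in capitals apart from its free base, 4 bases before the start (GRCh38.p14, chr12:57487818-57488117, plus strand).
MARS1: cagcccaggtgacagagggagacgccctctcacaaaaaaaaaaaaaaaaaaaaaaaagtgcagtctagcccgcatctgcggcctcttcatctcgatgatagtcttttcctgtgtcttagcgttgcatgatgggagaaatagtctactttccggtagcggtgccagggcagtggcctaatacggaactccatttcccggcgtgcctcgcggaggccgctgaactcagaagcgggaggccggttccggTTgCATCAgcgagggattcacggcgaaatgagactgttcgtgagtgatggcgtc

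In the folding machinery of the endoplasmic reticulum (ER) falls outnumbered rises, though 24 members were not called. Of 46 ER chaperones and unfolded protein response genes 16 fell and 6 rose, with a median of -0.23. SDF2L1, which works with the DNAJ cochaperones of the ER, stood at 12.05, 12.29 and 12.10 with DMSO and at 10.88, 11.16 and 10.42 with INK128, a fall of 1.32 (SE 0.18, adjusted p = 0.000673). MANF, an ER stress-induced secreted protein, went from 12.22, 12.24 and 12.36 to 11.03, 11.15 and 10.73 and fell by 1.30 (SE 0.13, adjusted p = 0.000192). HSP90B1, the ER member of the HSP90 family, fell by 0.77 and XBP1, the transcription factor of the unfolded protein response, by 0.59. Each of these had all 3 INK128 arrays below the DMSO arrays. EIF2AK3, the ER stress kinase PERK, rose instead, from 7.35, 7.12 and 7.18 to 8.03, 8.10 and 8.71, by 1.06 (SE 0.18, adjusted p = 0.00199). The ER stress element, CCAAT and CCACG separated by 9 bases, was present on either strand in 9 of the 59 windows of the list (15.3%), in 0.0769% of all windows and in 0.151% of those of tested genes. In the window of HSPA5, the ER HSP70 protein that fell by 0.99, it lies 66 bases before the start, in capitals (GRCh38.p14, chr9:125241294-125241593, minus strand).
HSPA5: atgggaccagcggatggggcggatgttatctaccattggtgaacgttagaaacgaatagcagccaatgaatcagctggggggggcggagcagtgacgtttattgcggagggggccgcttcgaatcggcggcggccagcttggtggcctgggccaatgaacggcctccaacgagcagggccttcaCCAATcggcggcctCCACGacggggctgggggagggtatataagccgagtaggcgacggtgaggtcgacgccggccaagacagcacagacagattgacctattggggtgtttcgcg

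Cytosolic chaperones had 11 of 33 members lower and none higher, with a median of -0.31, but the falls numbered 5 without DMSO replicate 1 or 3, 7 without INK128 replicate 1 and 18 without INK128 replicate 3. HSPB1, a small heat shock protein, fell by 1.25 and HSPA14, an HSP70 protein that binds ribosomes, by 0.66. The heat shock element, written as GAA, TTC and GAA each 2 bases apart, was found in 14.3% of the 42 windows of these genes and in 0.49% of all windows. Mitochondrial chaperones and import proteins fell in 15 of 27 cases and rose in none, with a median of -0.47 (11 to 16 with each array left out in turn). PAM16 of the import motor stood at 10.17, 10.89 and 10.35 with DMSO and at 9.08, 9.18 and 8.98 with INK128, a fall of 1.39 (SE 0.17, adjusted p = 0.000494). HSPE1, the HSP10 partner of the matrix chaperonin, went from 12.10, 12.01 and 11.97 to 10.85, 10.65 and 10.89, a fall of 1.23 (SE 0.12, adjusted p = 0.000152). TOMM40, the pore of the outer membrane, fell by 1.17, TOMM5 by 1.20 and TIMM10, a chaperone between the membranes, by 1.13. In all of these genes the lowest DMSO array lay above the highest INK128 array.

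In the 2 largest mitochondrial lists many members fell and none rose. Of 77 mitochondrial ribosomal proteins 38 fell and none rose, with a median of -0.38, in the large subunit (24 of 48) as in the small (14 of 29); 23 fell without DMSO replicate 3. MRPS17 stood at 11.94, 11.77 and 12.05 with DMSO and at 10.81, 10.77 and 10.62 with INK128, and fell by 1.18 (SE 0.12, adjusted p = 0.000194). MRPL36 fell by 1.01 and MRPS18C by 0.94. Nuclear genes of the respiratory chain and ATP synthase had 39 of 73 members lower and none higher, with a median of -0.46, but 21 were lower without DMSO replicate 2 and 19 without DMSO replicate 3. By complex, 15 of 33 fell in complex I, 0 of 3 in complex II, 6 of 8 in complex III, 6 of 11 in complex IV and 11 of 17 in ATP synthase. ATP5MC1, the c subunit of the synthase ring, went from 11.71, 11.64 and 11.75 to 10.48, 10.32 and 9.70, a fall of 1.54 (SE 0.18, adjusted p = 0.000417), by 1.08 on one probe and 1.99 on the other. COX7B of complex IV fell by 1.11, NDUFB6 and NDUFA9 of complex I by 0.80 and 0.61, and ATP5PF by 0.95. INK128 replicate 3 was the lowest array in ATP5MC1, NDUFB6, NDUFA9 and ATP5PF, and the highest of the 3 in COX7B, where it still lay below the DMSO arrays.

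Metabolic lists fell in smaller part. Of 31 genes of glycolysis and the pentose phosphate pathway 10 fell and 1 rose, PFKFB3 (0.67, named after its value was seen), with a median of -0.31. PKM, pyruvate kinase, stood at 9.76, 10.13 and 9.33 with DMSO and at 8.76, 8.54 and 8.53 with INK128, a fall of 1.13 (SE 0.18, adjusted p = 0.00184), PGD of the oxidative pentose phosphate branch fell by 0.90 and LDHA by 0.58. GAPDH, a common reference gene, changed by -0.30 (adjusted p = 0.221), with probes between -0.75 and 0.19. Among 27 cholesterol genes 9 fell and 2 rose. EBP, a sterol isomerase, fell by 1.00, DHCR7, the last enzyme of the pathway, by 0.80 and HMGCS1, at its entry, by 0.73. SC5D, a late desaturase, rose by 0.63. FASN, the fatty acid synthase, went from 12.34, 12.45 and 12.22 to 11.18, 11.24 and 11.14, a fall of 1.15 (SE 0.12, adjusted p = 0.000176), and SREBF1, which codes for the SREBP1 factor, fell by 0.66. Both rises in the list of 23 fatty acid genes were of genes outside synthesis, LPIN1, a phosphatidate phosphatase (0.92), and ACADM, which oxidizes fatty acids (0.83). The falls in that list numbered 5, or 9 without INK128 replicate 3 and 3 without any DMSO array or without INK128 replicate 2.

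In nucleotide and methyl group supply falls also outnumbered rises. Of 35 genes of purine, pyrimidine and dNTP synthesis 10 fell and 3 rose. UCK2, which salvages uridine and cytidine, fell by 1.15 (SE 0.12, adjusted p = 0.000214), from 9.60, 9.69 and 9.61 to 8.54, 8.60 and 8.31. PNP, of purine salvage, fell by 0.95 and NME1, a nucleoside diphosphate kinase, by 0.94. On its brightest probe NME1 changed by -0.47, and on the others by -1.16 and -1.2. CTPS2, a CTP synthase, rose by 1.04 (SE 0.11, adjusted p = 0.00026), from 9.26, 9.30 and 9.27 to 10.21, 10.31 and 10.43, so the groups were more than 0.9 apart in opposite directions for UCK2 and CTPS2. One-carbon and methionine cycle genes had 10 of 26 lower and none higher (6 lower without DMSO replicate 1 or 3 or INK128 replicate 1), among them the folate carrier SLC19A1 (-1.22) and AMD1 and SRM of polyamine synthesis (-1.01 and -1.05). Of 43 proteasome genes 17 fell, with a median of -0.32, and PSMB10, an immunoproteasome subunit named after its value was seen, rose by 0.55. PSMB5, the chymotrypsin-like subunit, went from 11.93, 12.10 and 11.86 to 10.98, 11.01 and 10.77, a fall of 1.04 (SE 0.12, adjusted p = 0.000404), and the assembly chaperone PSMG1 fell by 1.14.

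Cell cycle genes fell in part. Of 62 genes of the G1/S transition and DNA replication 17 fell and 2 rose (9 fell without DMSO replicate 1 or INK128 replicate 2, 10 without DMSO replicate 3), with a median of -0.29. ORC1 of the origin recognition complex stood at 9.41, 9.60 and 9.61 with DMSO and at 8.51, 8.59 and 8.33 with INK128, a fall of 1.06 (SE 0.12, adjusted p = 0.000345), and RRM2, the ribonucleotide reductase subunit, fell by 0.92. Among 80 genes of G2 and mitosis 16 fell and 2 rose, with a median of -0.14, and 9 and 8 fell without DMSO replicates 1 and 3, while 5 rose without INK128 replicate 3. CKS2, a subunit of cyclin-dependent kinases, fell by 1.12 (SE 0.13, adjusted p = 0.000404) and CKS1B by 1.05, whereas TOP2A, topoisomerase II, and CENPF, a kinetochore protein, rose by 0.68 each. TOP2A stood at 11.06, 10.72 and 11.12 with DMSO and at 11.60, 11.65 and 11.70 with INK128. The difference between the 2 lists was not tested. Of 32 measured histone genes 15 fell and 1 rose, H1-10 (0.79, named after its value was seen), with a median of -0.40 and 9 falls without DMSO replicate 1 or 3. Of the 32 genes 14 were retained through the DMSO arrays alone, and 6 of the 15 falls were among them, so these counts are no support for a fall of the list. Of the 17 detected on all 6 arrays 9 fell. H3C12 was not above background on any INK128 array, was retained through the DMSO arrays alone, and was at least 2.14-fold lower. H4C12 and the variant H3-3B fell by 0.91 and 0.77. Most replication-dependent histone mRNAs lack the poly(A) tail that oligo-dT labeling needs, so these probes report the labeled part of them.

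Among FOXO factors and their targets rises outnumbered falls. Of 32 measured members 16 rose, 3 fell and 13 were not called, with a median of 0.47. KLHL24, a kelch-like protein, had the largest change of the list, from 7.44, 7.12 and 7.24 to 9.60, 9.76 and 10.39, a rise of 2.65 (SE 0.19, adjusted p = 5.55e-05). FOXO1 stood at 9.65, 9.39 and 9.35 with DMSO and at 10.79, 10.97 and 11.15 with INK128, a rise of 1.51 (SE 0.14, adjusted p = 0.000136). TXNIP, an arrestin-like protein that restrains glucose uptake, went from 10.94, 10.87 and 10.73 to 12.79, 12.78 and 12.52, a rise of 1.85 (SE 0.12, adjusted p = 3.73e-05). PIK3IP1, which inhibits PI3K, went from 8.95, 9.07 and 8.87 to 10.58, 10.26 and 10.50, a rise of 1.49 (SE 0.13, adjusted p = 0.000114). In all 4 genes every INK128 array lay over 1 above the DMSO arrays. BTG1, an antiproliferative regulator of mRNA decay, rose by 1.48, HBP1, a repressor of cell cycle genes, by 1.46, and TSC22D3, the glucocorticoid-induced leucine zipper, by 1.17, though by 0.38 to 1.62 on its different probes. The 3 falls were those of SOD2, the mitochondrial superoxide dismutase (-1.33), TRIB1 and IL7R (-0.76 and -0.46, named after their values were seen). Of 34 growth arrest regulators 13 rose and 1 fell, with a median of 0.27, and 11 measured members are shared with the FOXO list. The member that fell was CDKN2A, the gene of p16 and ARF (-1.13, named after its value was seen).

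The FOXO element GTAAACA was present on either strand in 7 of the 45 promoter windows of the FOXO list (15.6%), each of a different gene, in 3.42% of all windows and in 2.66% of those of tested genes. Among windows of all genes that rose it was present in 4.29%, and among those of genes that fell in 1.66%. The list was made up of FOXO factors and their targets, so its share may follow from that choice. Any part of the element in the changes was not tested. The windows of TXNIP (chr1:145996530-145996829), PIK3IP1 (chr22:31292439-31292738) and BTG1 (chr12:92145797-92146096), all on the minus strand of GRCh38.p14 in RefSeq, are shown because these 3 genes had the largest changes among the list members that hold the element, in capitals. It lies 124 bases before the start in TXNIP, 209 before in BTG1, and 16 after it in PIK3IP1. TXNIP and PIK3IP1 have 2 windows each, of which 1 holds it. BTG1 and PIK3IP1 hold it on the opposite strand.
TXNIP: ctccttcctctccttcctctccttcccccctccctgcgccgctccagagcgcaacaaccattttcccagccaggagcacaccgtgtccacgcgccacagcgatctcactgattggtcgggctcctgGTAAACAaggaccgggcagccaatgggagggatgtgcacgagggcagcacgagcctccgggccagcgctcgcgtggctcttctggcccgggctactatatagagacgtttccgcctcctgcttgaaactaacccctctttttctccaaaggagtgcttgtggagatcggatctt
PIK3IP1: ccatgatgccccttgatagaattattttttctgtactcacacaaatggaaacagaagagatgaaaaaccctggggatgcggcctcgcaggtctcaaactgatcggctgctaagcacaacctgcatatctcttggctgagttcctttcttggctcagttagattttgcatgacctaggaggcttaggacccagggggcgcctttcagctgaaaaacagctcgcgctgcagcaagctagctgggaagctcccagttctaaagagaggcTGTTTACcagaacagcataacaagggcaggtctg
BTG1: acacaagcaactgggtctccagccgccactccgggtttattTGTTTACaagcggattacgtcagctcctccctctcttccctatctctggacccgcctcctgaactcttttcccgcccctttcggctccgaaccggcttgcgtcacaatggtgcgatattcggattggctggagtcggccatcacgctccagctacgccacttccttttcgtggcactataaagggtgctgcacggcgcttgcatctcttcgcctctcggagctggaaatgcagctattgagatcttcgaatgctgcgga

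Of 20 measured genes of PI3K, AKT and receptor feedback, a list that holds catalytic subunits and AKT coactivators as well as inhibitors, 9 rose, 1 fell (TRIB1) and 10 were not called, with a median of 0.27. TRIB2, a pseudokinase, stood at 8.72, 8.76 and 8.78 with DMSO and at 10.40, 10.55 and 10.49 with INK128, a rise of 1.73 (SE 0.11, adjusted p = 3.13e-05). PIK3CG, the gamma catalytic subunit of PI3K, went from 9.58, 9.52 and 9.56 to 11.03, 11.12 and 11.51, by 1.67 (SE 0.14, adjusted p = 0.000114), and INPP5D, the SHIP1 phosphatase that opposes PI3K, rose by 0.95. The arrays of these genes did not overlap between the groups.

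**Figure D3:**
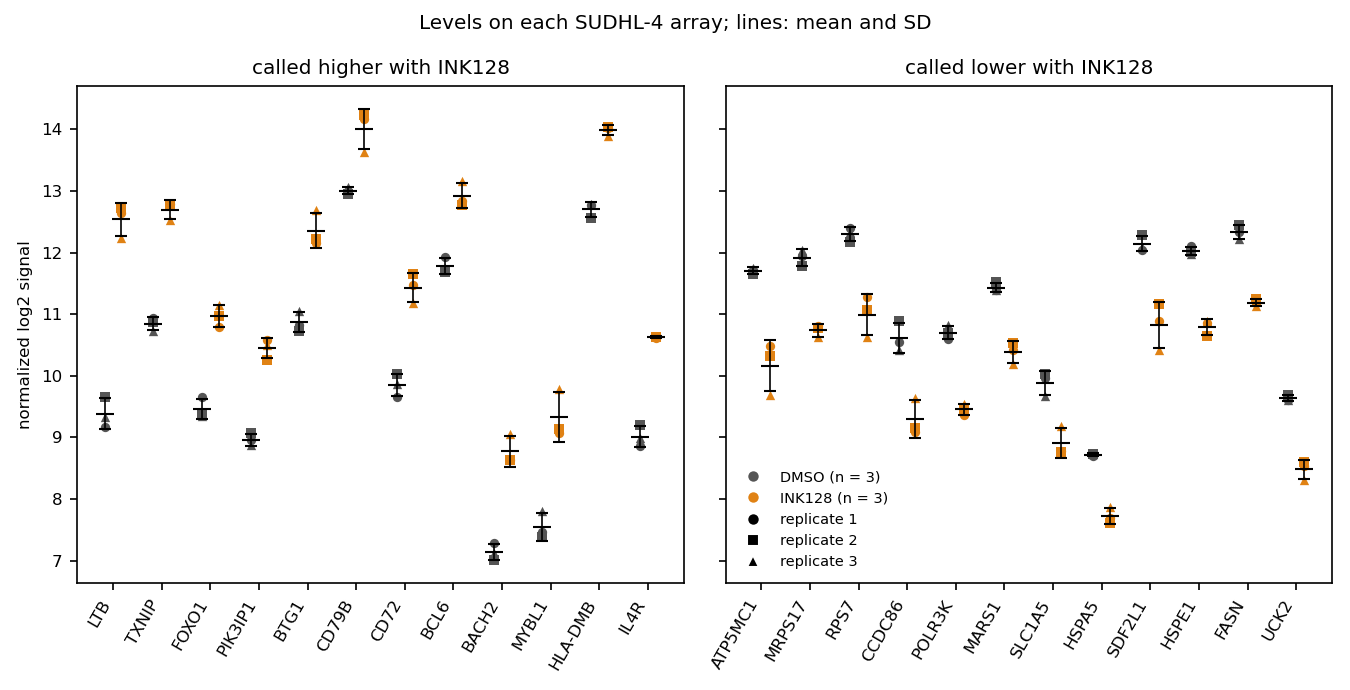
Normalized log2 signal (y axis) on each of the 3 DMSO (gray) and 3 INK128 (orange) arrays for 12 genes called higher (left) and 12 called lower (right), with the marker shape giving the replicate and black lines the mean and SD of each group. In none of the 24 genes, which were picked from those called, do the groups overlap.

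Many B-cell genes rose. Of 51 measured genes of the B-cell receptor (BCR) and its signaling 33 rose and none fell, with a median of 0.60 and 27 to 35 rises with each array left out in turn. CD79B, the signaling chain of the receptor, stood at 12.99, 12.95 and 13.07 with DMSO and at 14.17, 14.23 and 13.63 with INK128, a rise of 1.00 (SE 0.16, adjusted p = 0.00165), and CD79A, its partner, rose by 0.67. SYK, the kinase that binds both chains, went from 11.18, 11.43 and 11.01 to 12.30, 12.18 and 11.91, by 0.93 (SE 0.15, adjusted p = 0.00172). INK128 replicate 3 was the lowest INK128 array for all 3 genes and still lay above the DMSO arrays. CD72, an inhibitory coreceptor, rose by 1.58 (SE 0.15, adjusted p = 0.000152), from 9.66, 10.03 and 9.86 to 11.47, 11.65 and 11.17, and CBLB, a ubiquitin ligase that dampens the signal, by 1.15. The kinase BLK rose by 0.76 and MS4A1 (CD20) by 0.64, whereas CD22, an inhibitory lectin, had overlapping arrays and a change of 0.38 (adjusted p = 0.177). On the CD79B probe with the highest mean the rise was 0.64 (adjusted p = 0.0524), and in a fit with the SUDHL-2 arrays MS4A1 lost its call (adjusted p = 0.0751). VPREB1, a surrogate light chain of the pre-B receptor, rose by 1.31. The list of the surrogate light chain and recombination had 6 of 16 higher and 1 lower. It shares IGLL1, VPREB1, CD79A, CD79B and SYK, which all rose, with the BCR list, so these rises are counted in both.

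**Figure D4:**
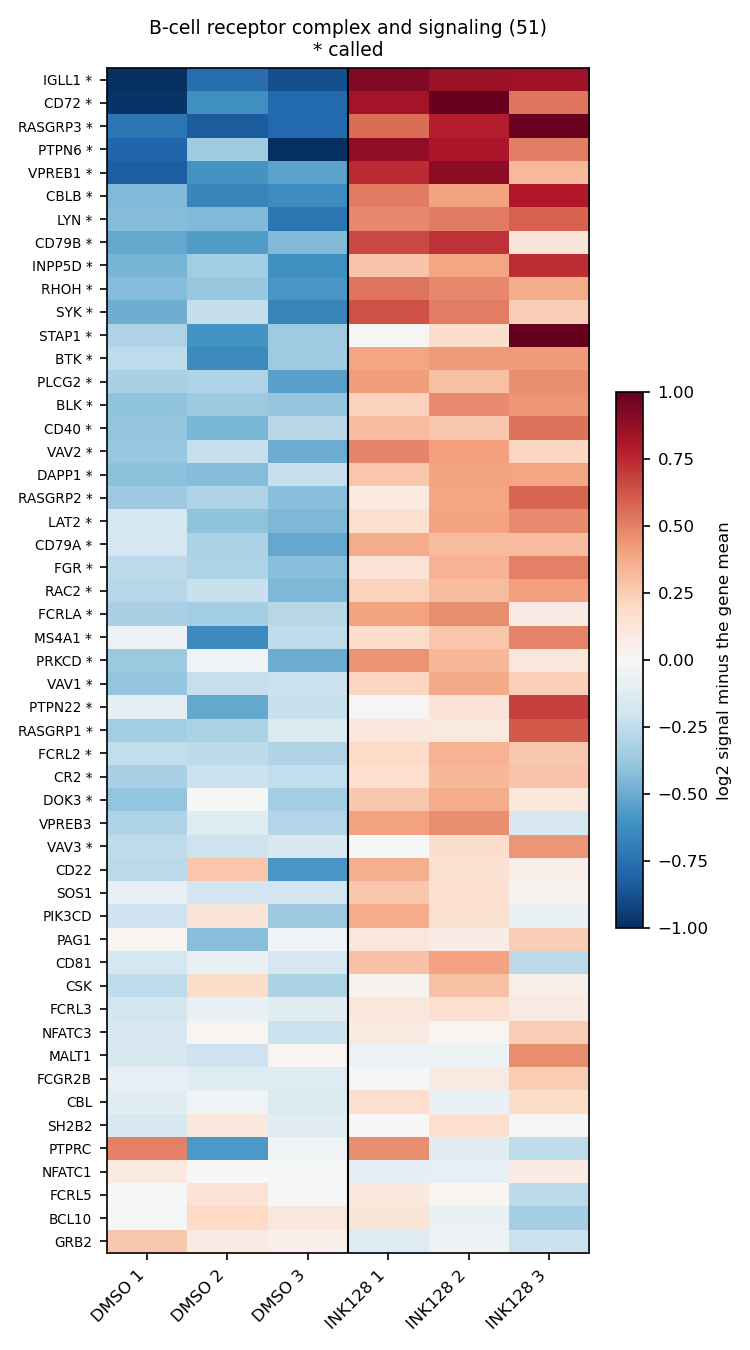
Heat map of the 51 measured genes of the B-cell receptor and its signaling (rows, ordered by their change) on the 6 arrays (columns), with color giving the log2 signal minus the gene's mean, cut at -1 and 1, and asterisks marking the 33 called genes. All 33 are lower (blue) with DMSO and higher (red) with INK128 on average.

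Of 40 B-cell transcription factors 23 rose and 3 fell, with a median of 0.39. BCL6, the repressor of the germinal center program, stood at 11.93, 11.68 and 11.75 with DMSO and at 12.84, 12.78 and 13.16 with INK128, a rise of 1.14 (SE 0.14, adjusted p = 0.000417). MYBL1 went from 7.46, 7.39 and 7.81 to 9.07, 9.13 and 9.79, by 1.78 (SE 0.20, adjusted p = 0.00029), and ETS1, which restrains plasma cell formation, from 10.21, 9.93 and 10.04 to 11.21, 11.28 and 11.46, by 1.25 (SE 0.12, adjusted p = 0.000168). BACH2, a repressor of plasma cell genes, rose by 1.63, by 2.22 and 2.57 on 2 probes and by 0.10 on the other. IRF8 rose by 1.01 and EBF1 by 0.83. The falls were those of XBP1, which drives secretion in plasma cells, and of MYB and MYBL2 (-0.94 and -0.63, named after their values were seen). MYBL2 was detected on 2 of the 3 INK128 arrays. Of the 22 GCB markers measured 20 rose and none fell, with a median of 0.83 (13 without DMSO replicate 3). SERPINA9, a serpin of germinal center B cells, went from 9.49, 9.52 and 9.31 to 10.60, 10.60 and 10.45, by 1.11 (SE 0.12, adjusted p = 0.000226), and ELL3, an elongation factor, by 1.29. Among 15 measured ABC and plasma cell markers 6 rose and 1 fell, the 6 including IL16, PIM1 and SLA (0.75, 1.00 and 1.00). IL16 changed by 0.14 to 1.36 on its different probes. The factor list and the GCB list share 3 members, BCL6 and MYBL1 among them, and the BCR list shares 6 with the B lineage markers. The summed signal of the B lineage markers before normalization was 58418.5 to 64653.5 with DMSO and 80357.8 to 109523.7 with INK128. These sums are not adjusted for the brightness of an array, and INK128 replicate 3 had the highest median signal.

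Genes of antigen presentation rose in part. Of 26 MHC class II genes and regulators 13 rose and 2 fell, with a median of 0.43. HLA-DMB, which loads peptides with HLA-DMA, stood at 12.77, 12.56 and 12.78 with DMSO and at 14.03, 14.04 and 13.89 with INK128, a rise of 1.28 (SE 0.12, adjusted p = 0.000138). HLA-DOA, which tempers that loading, went from 9.87, 10.03 and 10.00 to 11.09, 11.09 and 11.28, by 1.19 (SE 0.12, adjusted p = 0.000159), and HLA-DMA rose by 1.08. HLA-DRB1 and HLA-DRB3 rose by 0.99 and 1.05, but their probes may not tell these near-identical genes apart. CIITA, the class II transactivator, named after its value was seen, changed by 0.17 (adjusted p = 0.406). The falls were those of IFI30, a lysosomal thiol reductase, and RFXAP (-0.80 and -0.54, named after their values were seen). For class I and peptide loading 6 of 21 rose and 2 fell, and 3 rose without DMSO replicate 1 or 3 or INK128 replicate 1. HLA-B went from 8.07, 8.44 and 8.12 to 9.77, 10.01 and 9.50, a rise of 1.55 (SE 0.16, adjusted p = 0.000185), and HLA-E rose by 1.18.

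Homing and adhesion receptors had 19 of 37 members higher and none lower, with a median of 0.49. CXCR5, the receptor that leads B cells to follicles, rose by 1.06, but by 0.51 to 1.38 on its different probes. CD37 and CD53, tetraspanins, rose by 1.37 and 0.86. SLAMF6 stood at 8.74, 8.70 and 8.52 with DMSO and at 10.01, 10.00 and 9.79 with INK128, a rise of 1.28 (SE 0.12, adjusted p = 0.000149). CD24 was retained through the INK128 arrays alone, being detected on 2 of the DMSO arrays, and stood at 6.38, 6.40 and 6.42 with DMSO, near background, and at 7.76, 7.65 and 8.20 with INK128. PECAM1, also counted above among the stromal markers, stood at 6.30, 6.60 and 6.57 with DMSO, near background, and at 7.88, 8.02 and 7.77 with INK128. It rose by 1.40 (SE 0.13, adjusted p = 0.000136). For each of these receptors all INK128 arrays lay above the DMSO arrays.

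Of 15 genes of the TNF receptor family and the lymphotoxins 7 rose and none fell, with a median of 0.32. LTA, lymphotoxin alpha, stood at 9.60, 9.54 and 9.58 with DMSO and at 10.31, 10.36 and 10.25 with INK128, a rise of 0.73 (SE 0.11, adjusted p = 0.00112). CD40 rose by 0.75 and TNFRSF13C, the BAFF receptor, by 0.92. TNFRSF17, the plasma cell receptor BCMA, had overlapping arrays, with a change of -0.29 (adjusted p = 0.178). Of 32 cytokines, chemokines and their receptors 11 rose and 5 fell (3 without DMSO replicate 1). IL4R, the interleukin 4 receptor, went from 8.86, 9.19 and 8.99 to 10.62, 10.63 and 10.64, a rise of 1.62 (SE 0.12, adjusted p = 6.84e-05). SOCS1, an inhibitor of cytokine signaling, rose by 1.08 and IL10RA by 0.74, while IL10 itself changed by 0.37 (adjusted p = 0.0955). CCL4L1, a chemokine gene with near-identical copies, fell by 1.03. Interferon-stimulated genes had 14 of 38 higher and none lower, with a median of 0.22. IRF9, part of the factor that interferon activates, stood at 8.52, 8.54 and 8.42 with DMSO and at 9.62, 9.50 and 9.81 with INK128, a rise of 1.15 (SE 0.12, adjusted p = 0.000233), and TRIM22 and IFIT2 rose by 1.34 and 1.11. Of 39 genes of the NF-kB pathway and its targets 14 rose and 4 fell, among them TRAF5, an adaptor of TNF receptors (1.17), and IER3, an immediate early target (-0.90).

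The mTOR complexes and their regulators changed at shares near the background. Of 43 measured members 4 rose and 6 fell, with a median of -0.13, and 9 fell without INK128 replicate 3. TSC1, which with TSC2 switches mTORC1 off, stood at 7.91, 7.76 and 7.72 with DMSO and at 8.70, 8.63 and 8.78 with INK128, a rise of 0.91 (SE 0.11, adjusted p = 0.000494). NPRL3, a subunit of GATOR1, which also holds mTORC1 back, went from 10.97, 10.88 and 10.74 to 9.95, 10.03 and 10.20, a fall of 0.81 (SE 0.12, adjusted p = 0.00122). The Rag GTPases that bring mTORC1 to the lysosome parted: RRAGD fell by 0.71 and RRAGB rose by 0.93, with 0.41 and 1.46 on different probes. FKBP1A, the protein that binds rapamycin, fell by 0.85. MTOR and RPTOR, named after their values were seen, changed by -0.27 and -0.14 (adjusted p = 0.117 and 0.426).

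Of 44 autophagy genes 13 rose and 3 fell, with a median of 0.12, but 7 rose without DMSO replicate 1 and 8 without DMSO replicate 2. TP53INP1, which binds the autophagosome protein LC3, stood at 7.19, 7.05 and 7.32 with DMSO and at 8.69, 8.79 and 9.00 with INK128, a rise of 1.64 (SE 0.13, adjusted p = 9.16e-05). MAP1LC3B, LC3 itself, rose by 0.72 (SE 0.11, adjusted p = 0.00127), from 9.99, 9.94 and 9.97 to 10.60, 10.76 and 10.71. The related mitophagy receptors moved apart, BNIP3L with a rise of 0.78 and BNIP3 with a fall of 0.70. Lysosome and V-ATPase genes were near the background, with 10 of 61 higher and 8 lower and a median of 0.10. These counts were 4 and 2 without DMSO replicate 3, and 6 and 5 when INK128 replicate 2 was left out. Leaving out DMSO replicate 1 left 6 higher, and leaving out DMSO replicate 2 left 3 lower. LAMP3 rose by 1.43 (SE 0.16, adjusted p = 0.000297) and GRN, progranulin, by 0.86, whereas CTSC, cathepsin C, and the proton pump subunit ATP6V0E1 fell by 0.66 and 0.62. An E-box CACGTG was present in 30.4% of the 56 windows of the lysosome list.

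Some of the largest changes lay outside the lists. FCGBP, an IgG Fc-binding protein, stood at 6.59, 6.46 and 6.38 with DMSO, near background, and at 8.58, 8.67 and 8.56 with INK128. This was a rise of 2.13 (SE 0.11, adjusted p = 1.2e-05). DPEP2, a dipeptidase that cleaves leukotriene D4, rose by 2.07, PLEKHA2, an adaptor that binds phosphoinositides, by 1.89 and ATM, the DNA damage kinase, by 1.78. ENPP3, an ectoenzyme, went from 7.44, 7.20 and 7.18 to 9.12, 9.14 and 8.88, by 1.77 (SE 0.13, adjusted p = 5.55e-05). Among the falls, CD320, the receptor for transcobalamin-bound vitamin B12, went from 10.44, 10.49 and 10.72 to 8.91, 9.09 and 9.02, by -1.54 (SE 0.12, adjusted p = 9.3e-05). POLR2L, a subunit shared by the nuclear RNA polymerases, fell by 1.53, FABP5, a fatty acid carrier, by 1.45, RGS16, an inhibitor of G protein signaling, by 1.43, and GCSH of the glycine cleavage system by 1.41. CENPX, a centromere and DNA repair protein, fell by 1.38. In every gene of this paragraph with array values the groups lay over 1.3 apart at their nearest arrays.

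The response was set against that of SUDHL-2, an ABC-like DLBCL line treated and controlled in the same way, in 1 limma fit of all 12 arrays with an interaction term over 10391 genes detected in both lines. The response differed for 337 genes (3.24% of those tested), being more positive in SUDHL-4 for 147 and more negative for 190. The count rested on single arrays and was 55 without DMSO replicate 3 of SUDHL-4 and 950 without INK128 replicate 1 of SUDHL-2. Within groups the median SD was 0.17 in SUDHL-4 and 0.25 in SUDHL-2. On the scale of this fit TXNIP rose by 1.89 in SUDHL-4 and changed by 0.14 in SUDHL-2 (adjusted p = 0.606), a difference of 1.75 (SE 0.19, adjusted p = 0.000926). IRF9 rose by 1.19 in SUDHL-4 and changed by -0.56 in SUDHL-2 (adjusted p = 0.0759; difference 1.74, adjusted p = 0.00329). CD320 and POLR3K fell in SUDHL-4 and changed by -0.18 and 0.17 in SUDHL-2, with differences of -1.38 and -1.42. Of the genes called in both lines, 9 had opposite signs. TNF, the cytokine, rose by 0.41 in SUDHL-4 and fell by 1.25 in SUDHL-2, with SUDHL-4 arrays at 9.39, 9.49 and 9.46 with DMSO and 9.88, 9.73 and 9.95 with INK128, and SUDHL-2 arrays at 9.03, 8.95 and 8.87 and 7.70, 7.64 and 7.76. In neither line did the groups overlap for TNF, although in SUDHL-4 alone its call was lost without any 1 of the DMSO arrays or without INK128 replicate 1 (adjusted p = 0.0574 to 0.108). Median centring of the SUDHL-4 arrays also lost the TNF call (0.30, adjusted p = 0.099, limma).

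**Figure D5:**
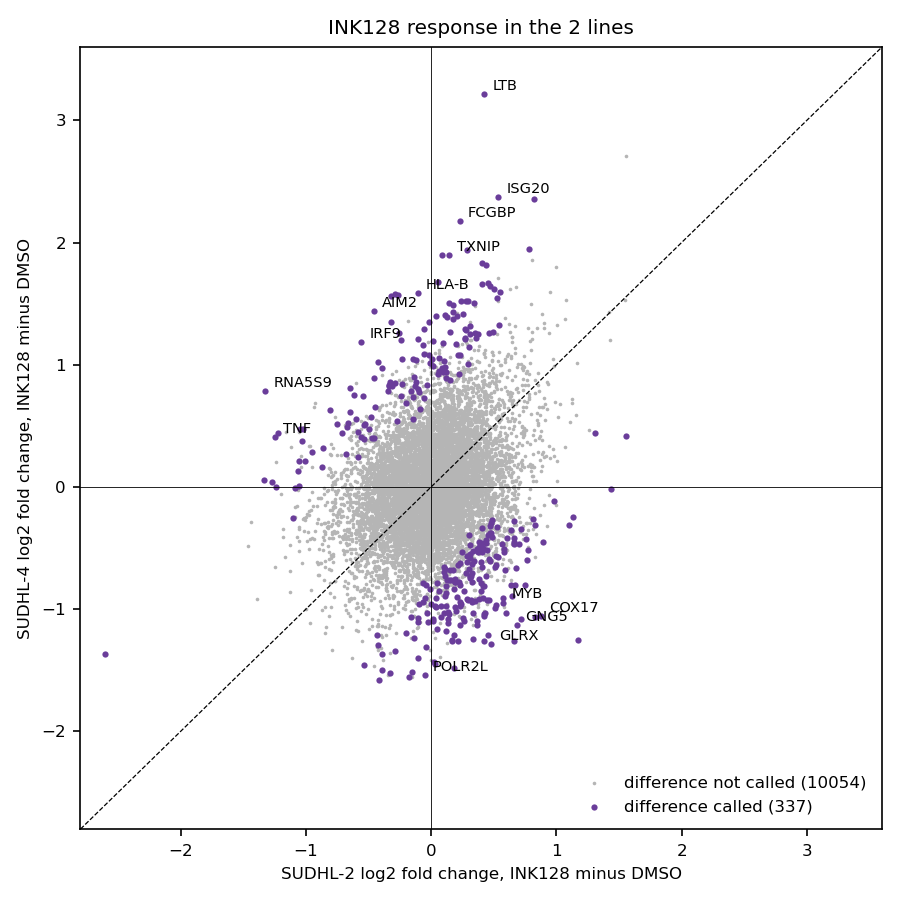
Log2 change with INK128 in SUDHL-4 (y axis) against SUDHL-2 (x axis) for the 10391 genes tested in both lines, with the 337 genes whose response differed at an adjusted p under 0.05 in purple and a dashed line where the changes are equal. LTB, FCGBP (at the floor on 2 SUDHL-2 arrays) and TXNIP lie high up near the vertical line of no change in SUDHL-2, and TNF lies above the horizontal and left of the vertical line.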

How the data were processed

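Polysomal RNA on Illumina HumanHT-12 BeadChips was analysed for 6 SUDHL-4 arrays, and the 6 SUDHL-2 arrays of the INK128 experiment entered the comparison of lines. The methods and labels name different versions of the array. The authors read the arrays with GenomeStudio and deposited, for each probe, its non-normalized signal intensity and a detection p-value. They also deposited processed score values, which are Z-scores of the log signal and served here as an alternative only. The test behind the study's own calls was not used here. The treatment time comes from the study's text and the doses from the labels. Gene symbols come from the platform annotation, where 30113 probes have 1 symbol and 8 have several, and updating through Entrez IDs changed 0 symbols.

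Of 47323 probes 92 had no values. Deposited intensities of the probes kept (detection p of 0.02 or less on all arrays of either group) were floored at the lowest detected signal of their array (76.3 to 81.8), logged to base 2 and, within each array, converted to Z-scores, then scaled back by the average SD and mean, so that changes read as log2. Probes of a symbol were averaged, for 2275 genes over more than 1 probe. R 4.3.3 with limma 3.58.1 (reading with data.table, version 1.17.8) compared the 2 groups, and an interaction term compared the lines. Genes were called at a Benjamini-Hochberg adjusted p under 0.05. The test was also run on simulated data. "At least" folds are group means against the floor. p-values measure the spread between these arrays.

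Gene lists, members and tests were chosen with earlier results of these data known, so no list is independent evidence. Lists are described by counts and medians, with no set test. The genes eligible to be named were the 15 largest rises and 15 largest falls among called genes without overlap, of each list the 6 members with the smallest p and all members of lists with 15 or fewer, the 6 largest line differences each way, the genes the study names and the markers. Others are marked where they appear. Promoter windows are RefSeq's (GRCh38.p14), 250 bases before to 50 after each start. Shares of windows with an element are descriptions, and a part of any element in the changes was not tested. Alternatives were other normalizations, background corrections, detection filters, probe rules and fits, the study's thresholds (p under 0.05, Z-ratio beyond 1.5 and a false discovery rate of 0.3 or less), a replicate block and each array left out. Columns of per-sample values not used numbered 0.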

Additional observations from a re-analysis of the deposited data

Results flagged for a closer look

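Among the genes named here, 59 were set apart because their INK128 response differed between SUDHL-4 and SUDHL-2 by the interaction test (adjusted p between 0.000926 and 0.0486, limma over 10391 genes, 3 arrays per group). Of all genes tested 3.24% differed in this way. Most of the genes here were named for their change in SUDHL-4, so the choice itself favored a small change in SUDHL-2. The larger spread within SUDHL-2 groups (median SD 0.25 against 0.17) also makes a call there less likely. Differences below are the log2 change in SUDHL-4 minus that in SUDHL-2, and no explanation was weighed for any of them.

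Of the genes that fell in SUDHL-4, the difference was -1.76 for GLRX, -1.66 for RPS21, -1.50 for CKS2, -1.49 for POLR2L, -1.48 for CKS1B and -1.47 for HSPB1. It was -1.46 for RGS16, -1.42 for POLR3K, -1.40 for TOMM5, -1.38 for CD320, -1.37 for TIMM10 and CCL4L1, and -1.36 for SNHG9. Differences of -1.30 for PAM16, -1.27 for NOP16, -1.25 for COX7B, -1.20 for UCK2, -1.05 for SOD2, -1.01 for ATP6V0E1 and -1.0 for H3-3B and RPS26 followed. The smallest were -0.99 for MRPS17, -0.97 for ORC1, -0.88 for NME1, -0.86 for PNP and -0.78 for SRXN1. In SUDHL-2 none of these 26 genes was called in either direction, with changes from -0.43 (SRXN1) to 0.48 (GLRX).

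Of the genes that rose in SUDHL-4, LTB differed by 2.79, FCGBP by 1.95, NCF1 by 1.81, TXNIP by 1.75, IRF9 by 1.74, HLA-B by 1.69, TNF by 1.66 and PLEKHA2 by 1.65. The difference was 1.42 for ATM, 1.38 for ENPP3, 1.37 for LTA and LAMP3, 1.31 for HLA-E, 1.29 for CD37, 1.25 for IL4R and PIK3IP1 and 1.20 for TRIM22. It was 1.19 for IL16, on the probes detected in both lines, 1.18 for NCF1C, 1.16 for CD24 and SLA, 1.11 for CD72, 1.10 for SC5D and HLA-DRB3, 1.03 for IRF8 and 1.02 for ETS1 and FOXO1. It was 1.00 for SLAMF6, 0.95 for HLA-DOA, 0.93 for CD79B, 0.88 for CD40, 0.82 for TSC1 and 0.79 for ELL3. ELL3 also rose in SUDHL-2 (0.54, adjusted p = 0.0458) and TNF fell there (-1.25), while the others were not called in that line.

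Some of these differences rest on values at the floor of the scale, so the SUDHL-2 change is not measured in full. FCGBP and CD72 were at the floor on 2 of the SUDHL-2 DMSO arrays and above background on 1, RGS16 was at the floor on all 3 SUDHL-2 INK128 arrays, and CCL4L1 and IL16 were at it on 1 SUDHL-2 array. CD24 was at it on 1 SUDHL-4 DMSO array. Others lay near the floor without being at it, such as PIK3IP1, at 6.10, 6.57 and 6.52 on the SUDHL-2 DMSO arrays. FCGBP had no value among genes detected on all 12 arrays.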

How the results depend on the processing

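Of the 281 changed genes among those eligible to be named, 223 kept their call and direction under every alternative and 58 lost the call under at least 1. CDC42, which fell by 0.46 as the mean of 2 probes, changed by 0.11 on the probe with the highest mean. The 3246 calls became 1932 with no filter on detection, where 37164 entries were tested, and 1463 at the study's own thresholds. With each array left out in turn they ranged from 1959 to 4131, with 2095 without DMSO replicate 1 and 1959 without DMSO replicate 3. With no filter on detection BNIP3L, CD79B, DCN, EEF2, EIF2AK3, LPIN1, MS4A1, RRM2, SREBF1, SRM, SYK and XBP1 were among the genes that lost their calls (adjusted p = 0.0506 to 0.33). Same-numbered arrays did not all deviate together (r = -0.28, 0.22 and 0.21). With 3 arrays per group these values cannot show whether the numbers mark pairs, and no pairing entered the main fit. With the replicate block 3655 genes were called. Detection on all 5 arrays with INK128 replicate 3 left out, an alternative chosen after seeing the data, gave 3867. The other alternatives, leaving out arrays apart, gave 2487 to 3825 calls.

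The 337 differences between the lines became 171 with median centring and 615 with the replicate block. They ranged from 55 to 950 with each array left out. The count fell to 107, 67 and 55 without SUDHL-4 DMSO replicates 1 to 3, to 86, 84 and 154 without SUDHL-4 INK128 replicates 1 to 3, and to 136 and 82 without SUDHL-2 DMSO replicates 1 and 3, and rose to 950 without SUDHL-2 INK128 replicate 1. The causes were not tested. Depth is not defined for arrays; signal near background and at the upper end of the scale, and 3 arrays per group, limit the precision.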

Other observations

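Of 29 measured genes of the BCL2 family and its partners 5 rose and 5 fell (3 fell without DMSO replicate 3), with a median of -0.11, and 17.2% in each direction is near the 13.5% of all genes. BMF, a BH3-only death activator, stood at 7.06, 7.01 and 6.88 with DMSO and at 8.65, 8.52 and 8.52 with INK128, a rise of 1.58 (SE 0.11, adjusted p = 5.55e-05, limma). HRK, another BH3-only gene, was not above background on any DMSO array, was retained through the INK128 arrays alone, and was at least 1.59-fold higher there. BAK1, a pore-forming member, fell by 0.69. The groups did not overlap for BMF or BAK1.

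Of 35 genes of the oxidative stress response and the NADPH oxidase 6 rose and 8 fell, with a median of -0.14. CYBB, the catalytic subunit of the oxidase, went from 7.65, 7.36 and 7.78 to 8.74, 8.86 and 9.34, a rise of 1.39 (SE 0.17, adjusted p = 0.000478), and NCF1C, whose probe may not be told apart from NCF1 and NCF1B, rose by 1.60. The antioxidant enzyme SRXN1, which reactivates peroxiredoxins, stood at 8.38, 8.38 and 8.37 with DMSO and at 7.33, 7.08 and 7.12 with INK128, a fall of 1.20 (SE 0.12, adjusted p = 0.000152). GLRX, glutaredoxin, fell by 1.28. CYBB and NCF1C thus lay above, and SRXN1 and GLRX below, every DMSO array. Of the whole list 17.1% rose and 22.9% fell, beside 13.5% of all genes in each direction.

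Of 49 genes of tubulin, actin and myosin 6 rose and 7 fell, but 12 rose without INK128 replicate 3, and 1 to 4 fell without any 1 of the other arrays. MYO1E, a membrane-bound myosin, rose by 1.01 (SE 0.12, adjusted p = 0.000417) and RHOH, a blood cell GTPase, by 0.93. ARPC5L of the Arp2/3 complex fell by 0.54. Of 6 14-3-3 proteins none rose and 2 fell, and without DMSO replicate 3 none fell; YWHAZ changed by 0.09 (adjusted p = 0.678). Of 10 FKBP prolyl isomerases 3 fell and none rose, namely FKBP11, FKBP4 and FKBP1A (-1.02, -1.0 and -0.85).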
